A study of Mus musculus with 12 samples.

Results

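The transcripts described here are 40 genes of NF-kB signalling and of the cytokines, chemokines and adhesion molecules that this pathway is known to induce. They were chosen by name, with earlier results of these data known. All 40 were among the 31017 gene symbols of the deposited count table. Of them, 34 reached a CPM (read counts scaled to a common library size) of at least 1 in at least 3 libraries, and 35 passed the filter on low counts and were tested together with 12079 genes in all. The additional tested gene was Cd40. Il6, Il1rn, Ccl2, Ccl7 and Saa3 were too low to be tested.

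RNA was sequenced from 3D cultures in collagen I gels of 4T1, a line derived from a mouse mammary tumour. The 4 groups, of 3 libraries each, were ETV4 knockout cells with FGF, ETV4 knockout cells without FGF, control cells with FGF and control cells without FGF. Knockout cells had been nucleofected with Cas9 and an ETV4 guide RNA, and control cells with Cas9 and a control guide RNA. In the FGF groups FGF10 (25 ng/ml) and FGF2 (40 ng/ml) were present during a first day in 10% serum and the next 4 days in 2% serum. The labels give 2% serum for all groups, and the gels were digested with collagenase before RNA was extracted. The labels give collagen concentrations of 1.2 and 2.4 mg/ml without saying which library had which. All 6 knockout libraries carry 1 further tag, C39, whose meaning the labels do not give, and they do not say whether these cells were a pool or a clone. Whether a difference belongs to a clone or to the genotype cannot be told apart. Nothing in the labels states that replicates came from separate cultures, and the p-values then reflect library-to-library spread that may be technical.

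NF-kB is a family of dimeric transcription factors built from the subunits p50 (from Nfkb1), p52 (from Nfkb2), RelA, c-Rel and RelB. IkB proteins such as IkBα hold the dimers in the cytoplasm until receptors for TNF, IL-1 or other signals activate the IKK complex, which marks IkB for degradation. The freed dimers induce cytokines, neutrophil-attracting chemokines, adhesion molecules and their own inhibitors, among them IkBα and the ubiquitin-editing enzyme A20. Carcinoma cells can make these products themselves. ETV4 is an ETS-family transcription factor of the PEA3 group, and ETS factors bind DNA around a GGAA core.

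Library totals lay between 18229429 and 23193244 counts, and the 40 genes took 0.316% to 0.399% of them. Etv4 transcript stood at 115, 119.5 and 113 CPM in knockout cells with FGF, against 154, 173 and 167 CPM in control cells with FGF. Without FGF it stood at 116, 159 and 116 CPM in knockout cells, against 168, 162 and 167 CPM in control cells. It was lower by log2 -0.35 without FGF and -0.51 with FGF (SE 0.11 each, edgeR adjusted p = 0.0173 and 0.00204), and the first call was lost when replicate 1 of control, or replicate 1 or 3 of Etv4_KO, was left out (adjusted p = 0.0514, 0.0661 and 0.0667). Frameshifts can leave mRNA in place, and loss of ETV4 protein cannot be read from this level. Etv4_KO replicate 2 stood apart from its group: the chi-square per degree of freedom over genes was 70.6 and 69.5 against replicates 1 and 3, and 3.26 to 11.2 between the other replicates of a group. Results that turn on it are given with and without it. Of 8 epithelial markers 7 were detected in every group, with a summed level of 4000 to 6330 CPM in a library, and Krt5 was at 0. Of 15 leukocyte and macrophage markers 6 to 9 were detected in a group. Their summed level in a library was 26.5 to 26.6 CPM in knockout cells with FGF, 23.7 to 31.3 in knockout cells without FGF, 19.7 to 21.2 in control cells with FGF and 18.7 to 19.8 in control cells without FGF. Most of it came from Cd14 and Cd68, while Adgre1, Fcgr1, Cd3e, S100a9 and Tyrobp had no count in any library. The part of these markers in the results was not tested. Fibroblast markers summed to 8.03 to 16 CPM, nearly all Pdgfra, with Dcn, Lum, Thy1 and Pdgfrb at 0, and endothelial markers summed to 0.151 to 0.748 CPM. In bulk RNA a smaller number of cells of a type and less RNA per cell cannot be told apart.

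The promoters of these genes are the windows in which NF-kB and ETS sequences can be read directly. RefSeq (GRCm38.p6) gave a promoter window, from 250 bases before to 50 bases after the transcript start, for 28 of the 40 genes, in 34 windows. Both strands were searched for the 10-base NF-kB consensus and for the ETS sequences AGGAAG and CCGGAAG. No match of one motif overlapped a match of another in these windows. The NF-kB consensus was present in 44.1% of the 34 windows (13 of 28 genes), against 10.5% of the promoters of all tested genes and 8.46% of all 32851 promoters. The genes were chosen as parts or known targets of NF-kB signalling, so the choice itself favours a higher share. Nfkb2 enters with several windows, of which those starting at 46305445 and 46305680 overlap and share a match. AGGAAG was present in 35.3% of the windows, against 32.8% of the promoters of tested genes and 35.4% of all promoters. CCGGAAG was found in 0 of the 34 windows, against 17.9% of the promoters of tested genes and 8.86% of all promoters. A match is a description of letters and not a binding site, and the absence of a match says only that these letters are not in the window.

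The promoters of 3 neighbouring chemokine genes are shown because they share 1 NF-kB sequence although their transcripts differed in opposite directions in knockout cells, and that of Tnf because it fell in both knockout comparisons and holds AGGAAG but no match to the consensus. Capitals mark NF-kB consensus matches and AGGAAG on either strand (CTTCCT as read here). The windows lie at chr5:90903649-90903948 on the plus strand for Cxcl2, chr5:90785851-90786150 on the plus strand for Cxcl3, chr5:90890995-90891294 on the plus strand for Cxcl1 and chr17:35201958-35202257 on the minus strand for Tnf. Cxcl1 was chosen after its values were seen, and the others are among the 6 genes with the largest knockout differences whose window holds a motif.
Cxcl2: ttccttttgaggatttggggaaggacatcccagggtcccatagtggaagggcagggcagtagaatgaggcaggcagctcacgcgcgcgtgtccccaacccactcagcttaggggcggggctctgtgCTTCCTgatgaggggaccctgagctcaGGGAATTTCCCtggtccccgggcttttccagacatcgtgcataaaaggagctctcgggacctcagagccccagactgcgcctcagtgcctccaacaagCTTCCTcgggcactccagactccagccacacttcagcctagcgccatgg
Cxcl3: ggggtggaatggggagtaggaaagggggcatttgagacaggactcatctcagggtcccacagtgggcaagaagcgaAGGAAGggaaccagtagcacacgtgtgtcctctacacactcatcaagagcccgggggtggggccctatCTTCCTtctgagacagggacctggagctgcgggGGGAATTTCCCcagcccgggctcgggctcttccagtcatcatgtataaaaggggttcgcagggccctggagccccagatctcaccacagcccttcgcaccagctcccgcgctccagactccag
Cxcl1: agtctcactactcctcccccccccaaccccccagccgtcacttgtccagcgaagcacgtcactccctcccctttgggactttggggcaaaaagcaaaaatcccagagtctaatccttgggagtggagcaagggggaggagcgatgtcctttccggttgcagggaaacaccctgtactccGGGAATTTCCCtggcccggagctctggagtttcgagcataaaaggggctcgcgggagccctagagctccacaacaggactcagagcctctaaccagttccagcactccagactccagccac
Tnf: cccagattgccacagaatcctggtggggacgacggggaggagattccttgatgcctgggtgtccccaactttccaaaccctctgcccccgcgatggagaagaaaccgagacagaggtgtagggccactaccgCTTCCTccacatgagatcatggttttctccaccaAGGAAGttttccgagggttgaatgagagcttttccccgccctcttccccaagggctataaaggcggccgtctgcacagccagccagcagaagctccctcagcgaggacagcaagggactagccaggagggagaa
In Cxcl1, Cxcl2 and Cxcl3 the match GGGAATTTCC begins at -71, -97 and -73 relative to the transcript start. It reads almost the same on both strands, so the capitals run 1 base past it. Cxcl2 and Cxcl3 each also hold AGGAAG at 2 places, and Cxcl1 holds none.

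The comparison of ETV4 knockout with control cells asks how these transcripts differ with the ETV4 guide. In knockout cells 16 of the 35 tested genes were lower in both conditions, led by the cytokines Tnf, Il18, Il33 and Il1a, the chemokine Cxcl2, the adhesion molecules Icam1 and Vcam1 and the iron-binding protein Lcn2. Another 5 were higher in both, including the chemokine Cxcl1, the prostaglandin synthase Ptgs2, the NF-kB inhibitor Nfkbia and the TNF-induced gene Tnfaip2. The share of all tested genes called alike in both conditions was not computed, so these counts have no background beside them. Each of the NF-kB subunits differed by less than 2-fold. Without FGF, knockout cells had 7 of the 35 tested genes higher and 20 lower, against 22.5% and 23.3% of all tested genes. With FGF, 5 were higher and 17 lower, against 18.0% and 22.2% of all tested genes. At least 2-fold, 0 were higher and 10 lower without FGF, against 2.47% and 7.41% of all tested genes, and 0 were higher and 9 lower with FGF, against 2.46% and 7.31%. The median log2 fold change was -0.35 without FGF and -0.41 with FGF, where that of all genes was -0.01 in both. The conditions use separate libraries, and 0 genes were called in opposite directions. A gene that passed the low-count filter only through the control groups had to be lower. These counts therefore describe the tested genes and not the whole list. Tnf, Cd40, Il33 and Icam1 passed it in this way, and among the pathway genes below Casp1, Casp4, Tnip3, Lifr and Tnfsf10. The list was chosen with earlier results of these data known, so its shares beside those of all genes are no test of it. Without Etv4_KO replicate 2 the counts were 6 higher and 21 lower without FGF and 8 higher and 20 lower with FGF. The counts over all genes rose as well in that run. They were 3212 higher and 3455 lower without FGF, against 2723 and 2810 with all libraries. With FGF they were 3439 higher and 3733 lower, against 2180 and 2682. Etv4_KO replicate 2 is in neither group of the comparison with FGF and acts there through the shared estimate of spread.

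**Figure D1:**
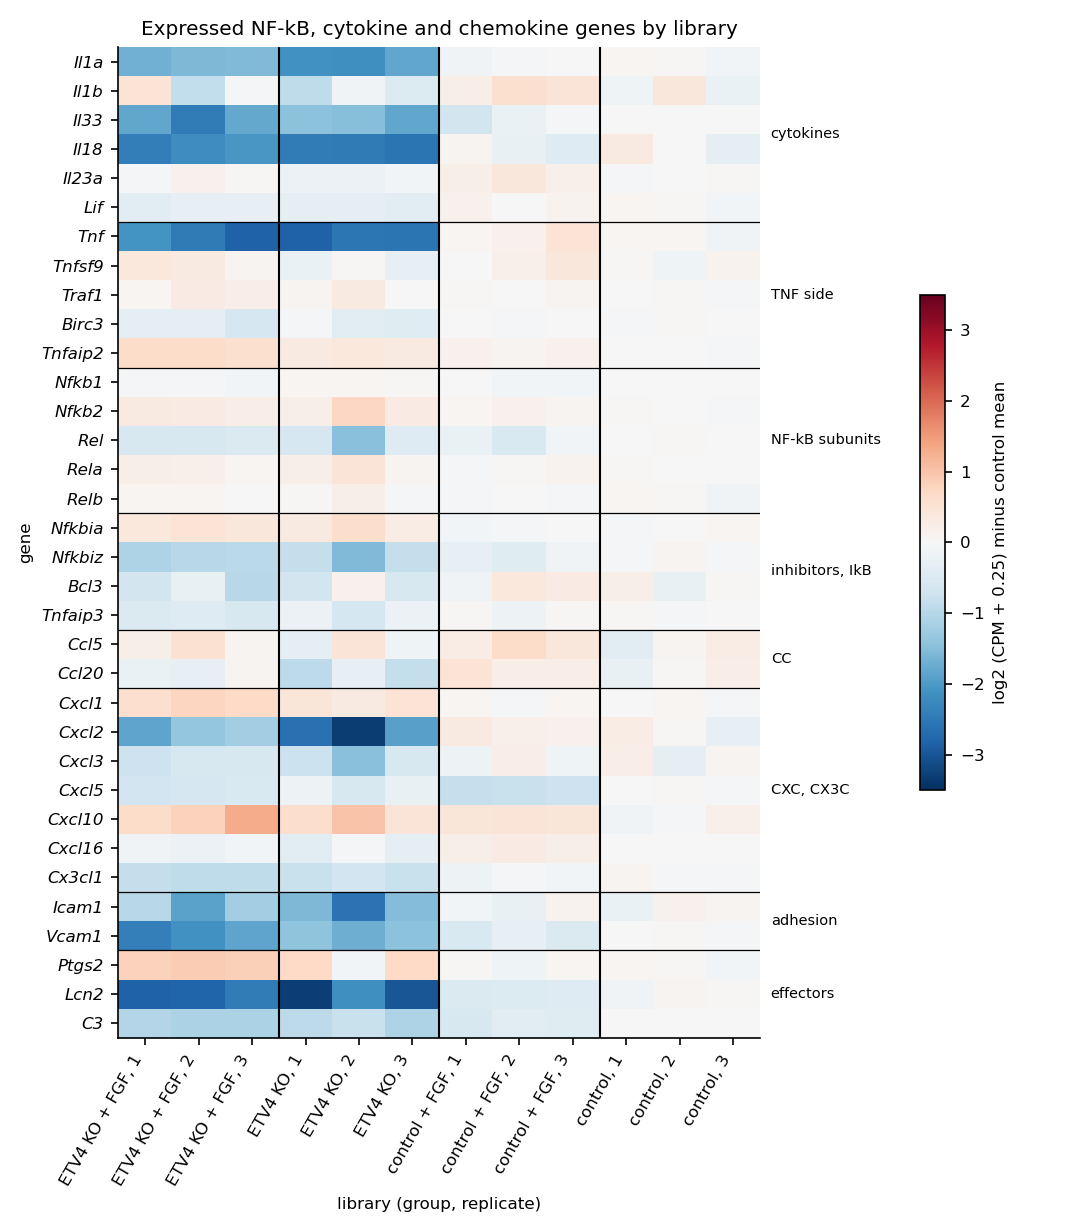
Level of the 34 expressed genes (rows, grouped by role) in each of the 12 libraries (columns), as log2 of CPM plus 0.25 minus the mean of the control libraries without FGF. Blue is lower and red higher; Il1a, Il18, Tnf, Cxcl2, Vcam1 and Lcn2 are blue in all 6 knockout libraries, and Cxcl1, Nfkbia and Tnfaip2 are red in all 6.

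**Figure D2:**
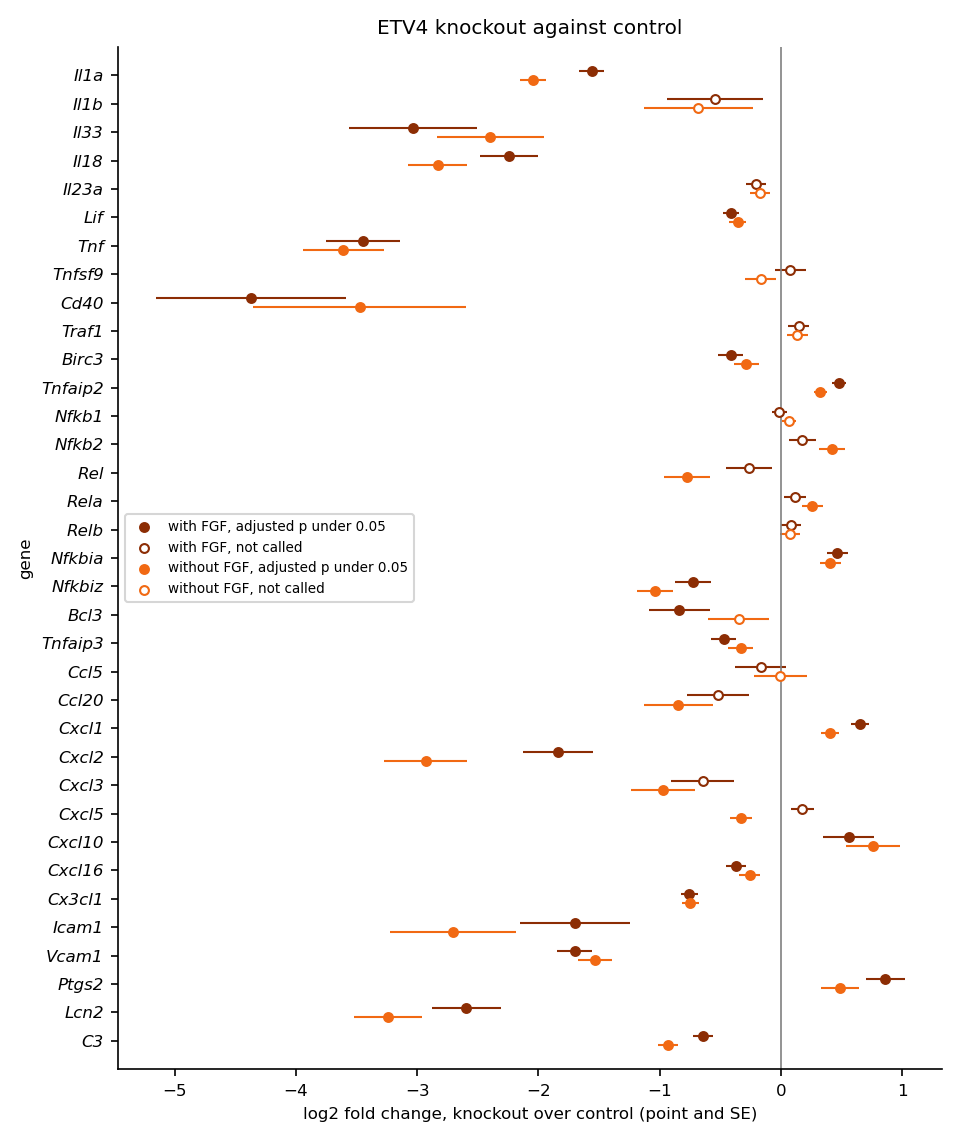
Log2 fold change of knockout over control with its SE for the 35 tested genes, with FGF (dark red) and without FGF (orange); filled points passed the edgeR test at an adjusted p under 0.05. The 5 subunits from Nfkb1 to Relb lie between -0.77 and 0.42, while Tnf, Cd40, Lcn2, Il33 and Il18 lie below -2 in both conditions.

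Among interleukins and related cytokines, 4 of 6 tested genes were lower and 0 higher in knockout cells, in each condition. Of all tested genes 23.3% were lower and 22.5% higher without FGF, and 22.2% lower and 18.0% higher with FGF. Il1a (chr2:129299610-129309972) encodes IL-1α, an alarmin that signals through the IL-1 receptor and activates NF-kB in the cells it reaches. Without FGF it stood at 7.47, 7.31 and 9.29 CPM in knockout cells, against 34.6, 34.2 and 31.0 CPM in control cells. With FGF it stood at 10.1, 11.1 and 11.2 CPM in knockout cells, against 30.4, 32.2 and 33.0 CPM in control cells. Every knockout library lay below every control library in both conditions. The difference was log2 -2.05, SE 0.11, adjusted p = 1.36e-08 without FGF and log2 -1.56, SE 0.10, adjusted p = 1.2e-07 with FGF (edgeR). Il18 (chr9:50554827-50581840), a cytokine that is released after cleavage by caspase-1, behaved alike. It had 0.858, 0.839 and 0.794 CPM in knockout cells, against 7.28, 5.9 and 4.63 CPM in control cells without FGF. With FGF the values were 0.888, 1.11 and 1.23 CPM in knockout cells and 6.23, 4.85 and 4.19 CPM in control cells. No knockout library reached a control library, and the edgeR difference was log2 -2.83, SE 0.25, adjusted p = 1.57e-06 without FGF and log2 -2.24, SE 0.24, adjusted p = 8.3e-06 with FGF.

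Il33 (chr19:29925114-29960718), a nuclear alarmin of epithelial cells, was at the edge of detection. Its levels without FGF were 0.252, 0.24 and 0.14 CPM in knockout cells, against 1.13, 1.13 and 1.1 CPM in control cells. With FGF they were 0.14, 0 and 0.148 CPM in knockout cells, against 0.627, 0.909 and 1.05 CPM in control cells. The groups did not overlap, but the knockout groups held 12 counts without FGF and 6 with FGF, so the size of the edgeR difference (log2 -2.40, SE 0.44, adjusted p = 0.000751 without FGF, log2 -3.04, SE 0.53, adjusted p = 0.000508 with FGF) is poorly set. Lif, a cytokine of the IL-6 family, was abundant and differed less. It averaged 252 ± 3.89 CPM in knockout cells and 323 ± 19.7 CPM in control cells without FGF, and 259.5 ± 9.23 CPM in knockout and 345 ± 21.3 CPM in control cells with FGF (SD, n = 3 each), a decrease of 0.36 and 0.41 on the log2 scale (edgeR adjusted p = 0.00104 and 0.000404). Neither Il1b (log2 -0.68, SE 0.45, adjusted p = 0.235 without FGF) nor Il23a (log2 -0.17, SE 0.08, adjusted p = 0.111 without FGF, adjusted p = 0.0598 with FGF) passed the edgeR test. Il23a with FGF passed without Etv4_KO replicate 2 (log2 -0.21, adjusted p = 0.0106). Il6 held 3 counts in knockout and 0 in control cells with FGF, and 4 counts in knockout and 3 in control cells without FGF. Il1rn, which encodes the IL-1 receptor antagonist, had 0 counts in knockout and 11 in control cells without FGF and was at least 3.39-fold lower (a floor of 3 counts over the group), and with FGF 2 counts in knockout and 13 in control cells gave a ratio of control to knockout of 6.08 (95% counting interval 1.38 to 55.5). The control libraries without FGF held 0, 8 and 3 counts of Il1rn and overlapped the knockout libraries. Such intervals and floors cover counting error only.

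Of the 6 genes of TNF ligands and TNF-receptor signalling, 3 were lower and 1 higher in knockout cells in each condition, where 23.3% and 22.2% of all tested genes were lower and 22.5% and 18.0% higher without and with FGF. Tnf and Cd40, among the lower genes, passed the low-count filter through the control groups only. Tnf (chr17:35199381-35202007), which encodes the cytokine TNF, had 0.151, 0.24 and 0.234 CPM in knockout cells, against 2.73, 2.74 and 2.34 CPM in control cells without FGF. With FGF it had 0.421, 0.264 and 0.148 CPM in knockout cells, against 2.72, 2.93 and 3.71 CPM in control cells. The control libraries were all several-fold above the knockout libraries, with 12 and 17 counts in the knockout groups without and with FGF against 163 and 201 in the control groups. The edgeR difference was log2 -3.61, SE 0.33, adjusted p = 2.87e-06 without FGF and log2 -3.45, SE 0.31, adjusted p = 1.78e-06 with FGF. Cd40 (chr2:165055627-165072948), a TNF-family receptor, reached 0.0505, 0.0599 and 0 CPM in knockout cells and 0.376, 0.708 and 0.249 CPM in control cells without FGF. With FGF it reached 0, 0 and 0.0986 CPM in knockout cells and 0.836, 1.01 and 0.571 CPM in control cells. It was close to absent in knockout libraries: 2 counts in each knockout group, against 28 in control cells without FGF and 52 with FGF, gave ratios of control to knockout of 13 (95% counting interval 3.27 to 112) and 24.3 (6.41 to 206). The edgeR adjusted p was 0.00599 without and 0.000657 with FGF, and with FGF the fitted value of -4.37 became -7.05 without Etv4_KO_FGF replicate 3, the 1 library of that group with counts.

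The other genes of this group differed by less than 2-fold. Tnfaip2, which TNF induces in many cells, rose by 0.33 without FGF and 0.48 with FGF on the log2 scale (SE 0.06 each, edgeR adjusted p = 0.000496 and 2.47e-05). It averaged 349 ± 8.56 CPM in knockout and 278 ± 5.17 CPM in control cells without FGF, and 424 ± 12.5 CPM in knockout and 304 ± 5.45 CPM in control cells with FGF (SD, n = 3 each). Birc3, an E3 ligase that restrains cell death at the TNF receptor, fell by 0.29 and 0.41 (edgeR adjusted p = 0.0377 without and 0.00652 with FGF). The first of these calls was lost with no low-count filter, in the fit on the compared libraries alone, and without any 1 control library, Etv4_KO replicate 3, control_FGF replicate 1 or control_FGF replicate 3 (adjusted p = 0.051 to 0.133). Tnfsf9, the ligand of the co-stimulatory receptor 4-1BB, and the adaptor Traf1 did not pass in either condition (edgeR adjusted p = 0.192 to 0.672), though Traf1 with FGF passed without Etv4_KO replicate 2 (log2 0.15, adjusted p = 0.0295).

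The 5 NF-kB subunits were detected in every library, and per kilobase of exon Nfkb2 and Rela were the highest and Rel the lowest. In control cells without FGF the mean level was 57.4 CPM per kilobase for Nfkb2, 37.0 for Rela, 12.04 for Nfkb1, 9.18 for Relb and 4.15 for Rel. The divisor was the union of all annotated exons, 12061 bases for Nfkb1 and 7466 for Rel, against 4584 for Nfkb2 and 3072 for Rela. By mean CPM alone the order was Nfkb2 (263), Nfkb1 (145), Rela (114), Relb (35.7) and Rel (31.0). The order of Nfkb1 and Rela thus rests on the divisor. Nfkb1, which encodes the p50 precursor, was at 153, 152 and 151 CPM in knockout and 144, 146 and 145 CPM in control cells without FGF, and at 140.4, 137 and 137 CPM in knockout and 145, 137 and 137 CPM in control cells with FGF. Its log2 differences of 0.06 and -0.01 (SE 0.06 each) did not pass; without FGF its 3 knockout libraries lay above the control libraries, and with FGF the libraries overlapped. Relb, which pairs with p52 in the noncanonical branch, was at 36.8, 41.2 and 34.6 CPM in knockout and 37.2, 36.9 and 32.9 CPM in control cells without FGF, and at 37.6, 37.3 and 36.0 CPM in knockout and 34.2, 35.5 and 34.8 CPM in control cells with FGF. Its edgeR differences, 0.07 and 0.09 (SE 0.08 each), did not pass either (adjusted p = 0.494 and 0.436).

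Nfkb2, Rela and Rel were called without FGF, and 0 of the 5 subunits were called with FGF. Nfkb2, the p52 precursor, was at 302, 434 and 319.9 CPM in knockout and 272, 260.0 and 256 CPM in control cells without FGF, and at 325, 323 and 309 CPM in knockout and 273, 290.3 and 282 CPM in control cells with FGF. Rela, the main activating subunit, was at 132, 155 and 122 CPM in knockout and 118, 112 and 112 CPM in control cells without FGF, and at 132, 129 and 120.2 CPM in knockout and 110.2, 117 and 125 CPM in control cells with FGF. Rel, which encodes c-Rel, was at 20.6, 11.0 and 22.4 CPM in knockout and 30.4, 32.1 and 30.5 CPM in control cells without FGF, and at 20.9, 20.9 and 21.9 CPM in knockout and 26.3, 21.3 and 28.8 CPM in control cells with FGF. In all 3 the libraries without FGF did not overlap, and Etv4_KO replicate 2 was the one farthest from control. The edgeR differences without FGF were log2 0.42, SE 0.11, adjusted p = 0.00672 for Nfkb2, log2 0.26, SE 0.09, adjusted p = 0.0297 for Rela and log2 -0.77, SE 0.19, adjusted p = 0.00531 for Rel. Without that replicate they were 0.24 (adjusted p = 0.00034), 0.16 (0.0383) and -0.53 (0.000115). With FGF they were 0.18, 0.12 and -0.26 (adjusted p = 0.212, 0.324 and 0.3), and Nfkb2 and Rel passed there when Etv4_KO replicate 2 was left out (adjusted p = 0.00179 and 0.0155) or when the compared libraries were fitted alone (0.00841 and 0.03). The call of Rela without FGF was lost in the fit on the compared libraries alone (adjusted p = 0.0976) and without any 1 control library (0.0522 to 0.0865).

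The inhibitors moved in both directions. Nfkbia (chr12:55489410-55492647), which encodes IkBα, rose by 0.41 without FGF and 0.46 with FGF on the log2 scale (SE 0.09 each, edgeR adjusted p = 0.00195 and 0.000837). It averaged 172 ± 22.5 CPM in knockout and 130.1 ± 4.68 CPM in control cells without FGF, and 173 ± 6.18 CPM in knockout and 125 ± 3.6 CPM in control cells with FGF (SD, n = 3 each). Tnfaip3, which encodes A20, fell by 0.33 and 0.47 (edgeR adjusted p = 0.0171 and 0.00245), with means of 224 ± 35.1 CPM in knockout and 282 ± 6.93 CPM in control cells without FGF (SD, n = 3 each). Its change without FGF was -0.21 without Etv4_KO replicate 2, and that call was lost without control replicate 1 (adjusted p = 0.0546) and in the fit on the compared libraries alone (0.0848). Nfkbiz (chr16:55811375-55838899) encodes IkBζ, a nuclear IkB protein needed for a subset of NF-kB targets that includes Lcn2 in mouse cells. Without FGF it was at 91.2, 56.1 and 90.6 CPM in knockout cells, against 158, 174 and 158 CPM in control cells. With FGF it was at 77.5, 82.6 and 84.9 CPM in knockout cells, against 133, 122 and 151 CPM in control cells. The groups did not overlap in either condition, and Etv4_KO replicate 2 was the lowest of all libraries. The edgeR difference was log2 -1.04, SE 0.15, adjusted p = 0.000113 without FGF, -0.85 without that replicate, and log2 -0.73, SE 0.15, adjusted p = 0.00168 with FGF. Bcl3, a nuclear partner of p50 and p52, passed with FGF only (log2 -0.84, SE 0.25, adjusted p = 0.0176, against log2 -0.35 and adjusted p = 0.275 without FGF). Its call with FGF was lost when replicate 2 or 3 of control_FGF was left out, or replicate 1 or 3 of Etv4_KO_FGF (adjusted p = 0.057 to 0.0805), and it passed without FGF when Etv4_KO replicate 2 was left out (log2 -0.65, adjusted p = 0.0202). Its interaction with FGF did not pass (adjusted p = 0.56).

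**Figure D3:**
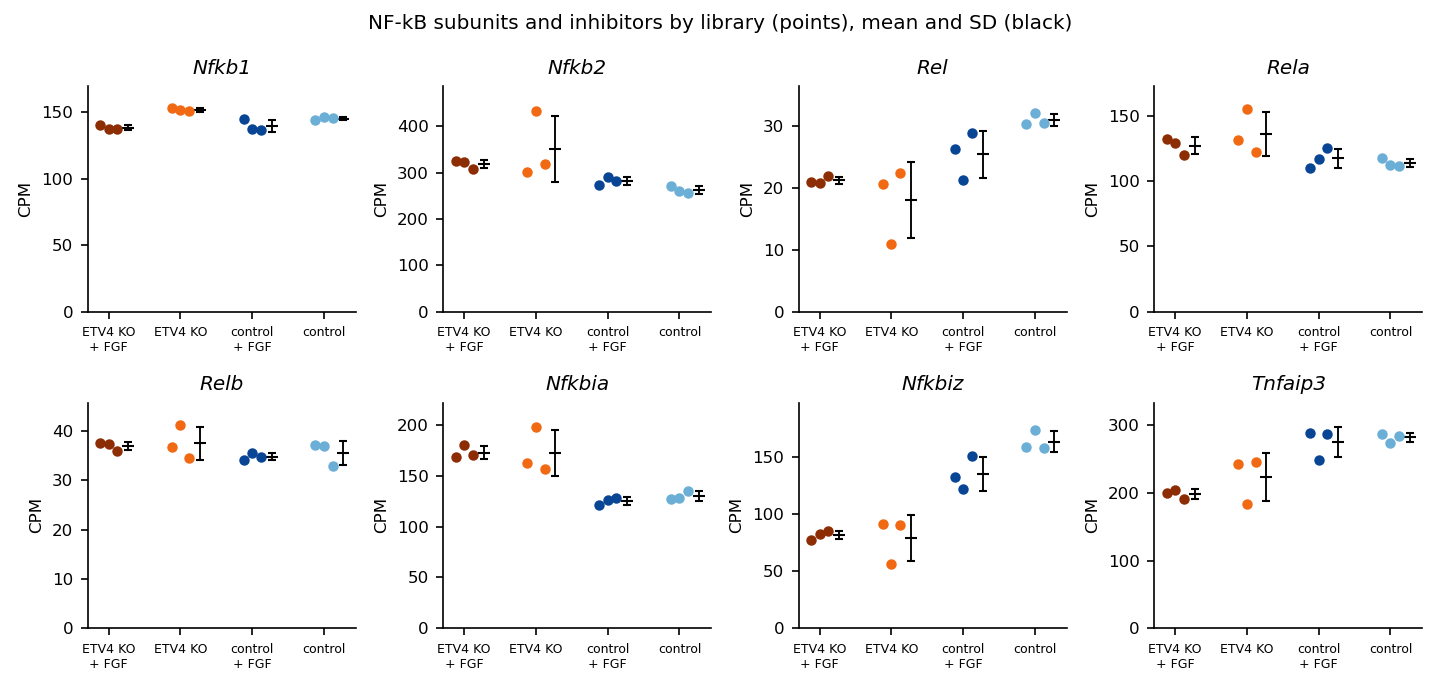
CPM of the 5 NF-kB subunits and of the inhibitors Nfkbia, Nfkbiz and Tnfaip3 in each library (points, 3 per group), with the mean and SD in black; each axis starts at 0. Nfkbia is higher and Nfkbiz lower in all knockout libraries, and the point far from its group in Nfkb2, Rel and Nfkbiz is ETV4 KO replicate 2.

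Chemokines were split. Without FGF all 7 CXC and CX3C genes were called, 2 higher and 5 lower in knockout cells, and with FGF 2 were higher, 3 lower and 2 not called, against the shares of all tested genes given above. Cxcl5, Cxcl3, Cxcl1 and Cxcl2 lie in this order in a chemokine cluster on the plus strand of chromosome 5, between 90759360 and 90905938 (mm10), and encode neutrophil-attracting chemokines that share a receptor. Cxcl1 (chr5:90891241-90893115) was the highest of them, at 163 CPM per kilobase of exon in control cells without FGF, where Cxcl5 was at 34.5, Cxcl2 at 1.97 and Cxcl3 at 0.855. It had 411, 377 and 429.6 CPM in knockout cells, against 309.9, 319 and 289 CPM in control cells without FGF. With FGF it had 462, 519.5 and 497 CPM in knockout cells, against 322, 297 and 321 CPM in control cells. Every knockout library was above every control library, and the edgeR difference was log2 0.41, SE 0.07, adjusted p = 0.000625 without FGF and log2 0.65, SE 0.07, adjusted p = 1.59e-05 with FGF. Its neighbour Cxcl2 (chr5:90903871-90905938), with the same NF-kB sequence in its promoter, went the other way. It had 0.454, 0.18 and 0.887 CPM in knockout cells, against 4.89, 4.11 and 3.24 CPM in control cells without FGF. With FGF it had 0.935, 1.43 and 1.58 CPM in knockout cells, against 5.02, 4.54 and 4.52 CPM in control cells. The groups were far apart in both conditions, with an edgeR difference of log2 -2.93, SE 0.34, adjusted p = 2.07e-05 without FGF, -3.62 without Etv4_KO replicate 3, and log2 -1.84, SE 0.29, adjusted p = 0.000232 with FGF.

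Cxcl3 averaged 1.49 ± 0.529 CPM in knockout and 2.99 ± 0.651 CPM in control cells without FGF, and 1.84 ± 0.133 CPM in knockout and 2.88 ± 0.52 CPM in control cells with FGF (SD, n = 3 each). It fell without FGF (log2 -0.98, SE 0.27, adjusted p = 0.00905) and missed the threshold with FGF (log2 -0.65, SE 0.26, adjusted p = 0.0614; edgeR), where it passed by DESeq2 (adjusted p = 0.0482), without Etv4_KO replicate 2 (0.0217) and in the fit on the compared libraries alone (0.0253). Cxcl5 averaged 51.1 ± 6.94 CPM in knockout and 64.3 ± 2.59 CPM in control cells without FGF, and 42.5 ± 2.05 CPM in knockout and 37.6 ± 0.948 CPM in control cells with FGF (SD, n = 3 each). It fell by 0.33 on the log2 scale without FGF (edgeR adjusted p = 0.0107, 0.0742 in the fit on the compared libraries alone) and was at 0.18 with FGF (adjusted p = 0.151), a value that passed without Etv4_KO replicate 2 (0.0144) and in the compared libraries alone (0.0363). The 4 genes have similar sequences, and their single values are uncertain, since the sources used here do not give the authors' handling of reads that match several genes.

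**Figure D4:**
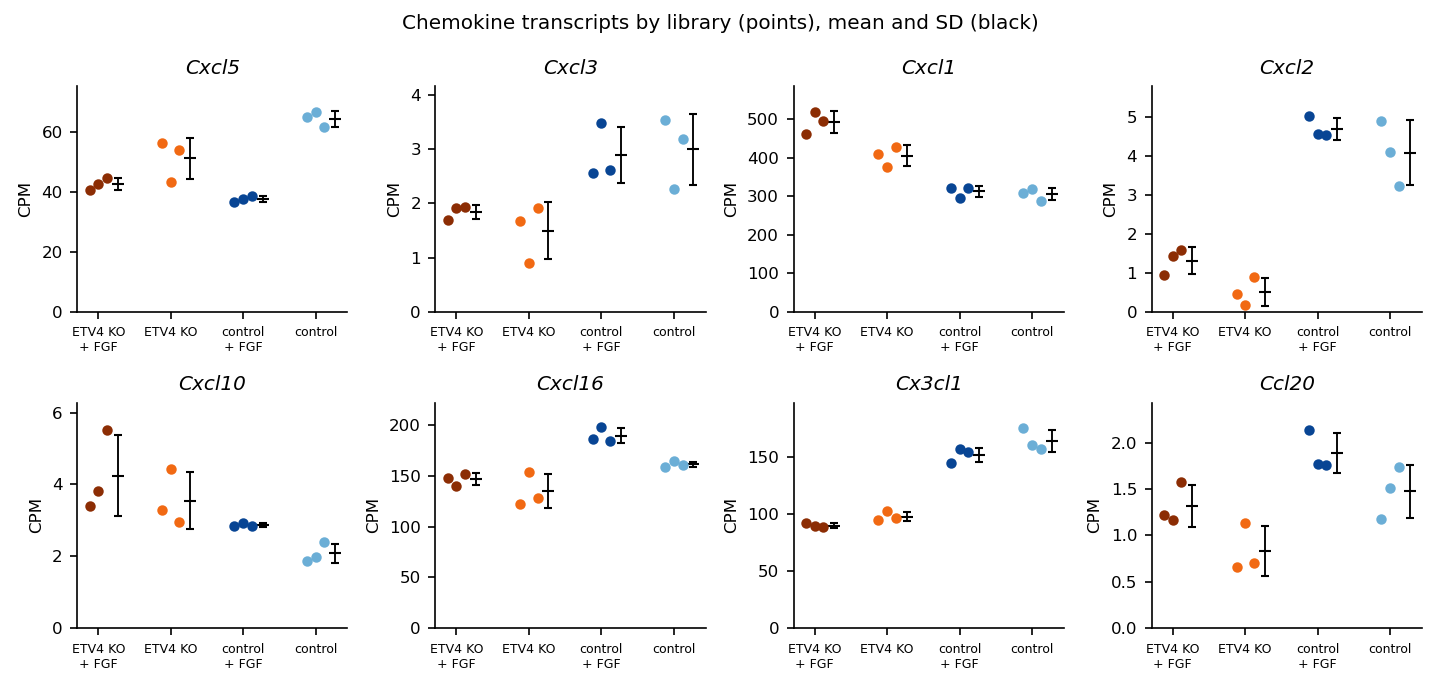
CPM of 8 chemokine genes in each library (points, 3 per group), with the mean and SD in black; each axis starts at 0 and differs between genes. By group mean Cxcl1 and Cxcl10 are higher and Cxcl2, Cxcl3, Cxcl16, Cx3cl1 and Ccl20 lower in knockout groups than in the control group of the same FGF condition. Cxcl3 and Ccl20 were not called with FGF.

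Cxcl10, an interferon-induced attractant of T cells that lies farther along chromosome 5 (chr5:92346638-92348889), was higher in knockout cells. It averaged 3.55 ± 0.783 CPM in knockout and 2.08 ± 0.27 CPM in control cells without FGF, and 4.25 ± 1.12 CPM in knockout and 2.88 ± 0.0458 CPM in control cells with FGF (SD, n = 3 each). The edgeR difference was log2 0.76, SE 0.23, adjusted p = 0.0145 without FGF and log2 0.56, SE 0.21, adjusted p = 0.0485 with FGF. The call without FGF was lost without control replicate 1 or Etv4_KO replicate 2 (adjusted p = 0.0554 and 0.0504). The call with FGF was lost when any 1 library other than Etv4_KO replicate 2 or 3 or Etv4_KO_FGF replicate 1 was left out, with a value of 0.33 without Etv4_KO_FGF replicate 3 (adjusted p = 0.25). It was also lost with no low-count filter (0.051), with a filter at 1 CPM in 3 libraries (0.0509) and with a replicate block (0.0588). Cx3cl1, the membrane-bound chemokine fractalkine, fell by 0.75 and 0.76 on the log2 scale without and with FGF (SE 0.07 each, edgeR adjusted p = 3e-06 and 2.54e-06). Its means were 97.8 ± 4.07 CPM in knockout and 164 ± 9.74 CPM in control cells without FGF, and 90.0 ± 1.91 CPM in knockout and 152 ± 6.31 CPM in control cells with FGF (SD, n = 3 each). Cxcl16, another membrane-bound chemokine, fell by 0.26 and 0.37 (edgeR adjusted p = 0.0219 and 0.00322). Without FGF that call was lost without control replicate 2 or 3 or Etv4_KO replicate 1 or 3 (adjusted p = 0.0521 to 0.0853) and in the fit on the compared libraries alone (0.0518).

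CC chemokines were low or uncalled. Ccl20, which attracts cells that carry CCR6, fell by 0.85 on the log2 scale without FGF (edgeR adjusted p = 0.0268) and was at -0.52 with FGF (adjusted p = 0.121). The call was lost without control replicate 2 or 3 or Etv4_KO replicate 1 or 3 (adjusted p = 0.0678 to 0.0971) and in the fit on the compared libraries alone (0.0617). Ccl5 did not pass (log2 -0.17, SE 0.21, adjusted p = 0.563 with FGF, adjusted p = 0.986 without FGF, edgeR), and its sign without FGF turned with single libraries. Ccl2, a monocyte attractant, had 5 counts in knockout and 35 in control cells without FGF, and with FGF 0 counts in knockout and 13 in control cells, at least 4.06-fold lower. Ccl7 had 4 counts, all in 1 library of knockout cells with FGF.

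Both adhesion molecules were lower in knockout cells. Vcam1 (chr3:116109949-116129688), a ligand of leukocyte integrins, had 8.23, 6.59 and 7.99 CPM in knockout cells, against 22.0, 22.7 and 21.5 CPM in control cells without FGF. With FGF it had 3.97, 4.92 and 6.02 CPM in knockout cells, against 15.1, 18.1 and 15.3 CPM in control cells. All knockout libraries lay below all control libraries, and the edgeR difference was log2 -1.53, SE 0.14, adjusted p = 2.17e-06 without FGF and log2 -1.70, SE 0.15, adjusted p = 1.17e-06 with FGF. Icam1 (chr9:21015985-21028817), also an integrin ligand, was near the limit of detection, at 0.252, 0 and 0.28 CPM in knockout cells, against 1.03, 1.42 and 1.34 CPM in control cells without FGF. With FGF it was at 0.514, 0.159 and 0.394 CPM in knockout cells, against 1.17, 1.01 and 1.38 CPM in control cells. The groups did not overlap. The knockout groups held 11 and 22 counts without and with FGF, against 79 and 77 in the control groups (edgeR log2 -2.71, SE 0.52, adjusted p = 0.000973 without FGF, log2 -1.70, SE 0.46, adjusted p = 0.00932 with FGF).

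Of the secreted effectors, Lcn2 and C3 fell and Ptgs2 rose. Lcn2 (chr2:32384633-32388252), an iron-binding protein of innate immunity, had 0.303, 0.959 and 0.42 CPM in knockout cells, against 4.65, 5.48 and 5.33 CPM in control cells without FGF. With FGF it had 0.514, 0.529 and 0.74 CPM in knockout cells, against 3.51, 3.64 and 3.71 CPM in control cells. The highest knockout library was below the lowest control library in both conditions, and the edgeR difference was log2 -3.24, SE 0.28, adjusted p = 1.54e-06 without FGF and log2 -2.59, SE 0.28, adjusted p = 1.07e-05 with FGF. The complement component C3 averaged 69.2 ± 7.54 CPM in knockout and 132 ± 0.39 CPM in control cells without FGF, and 62.1 ± 1.97 CPM in knockout and 96.9 ± 6.2 CPM in control cells with FGF (SD, n = 3 each), a decrease of 0.93 and 0.64 on the log2 scale (edgeR adjusted p = 2.1e-06 and 5.24e-05). Ptgs2 (chr1:150100031-150108227) encodes cyclooxygenase-2, which makes the precursor of prostaglandins. It averaged 875 ± 248 CPM in knockout and 625 ± 38.5 CPM in control cells without FGF, and 1124 ± 26.9 CPM in knockout and 619 ± 47.7 CPM in control cells with FGF (SD, n = 3 each). Without FGF, Etv4_KO replicate 2 was at 589 CPM, within the control range, and replicates 1 and 3 were at 1015 and 1021 CPM. The edgeR difference was log2 0.49, SE 0.16, adjusted p = 0.0221 without FGF and log2 0.86, SE 0.16, adjusted p = 0.000769 with FGF. Without that replicate the first was 0.71 (adjusted p = 4.47e-10). It was not called without control replicate 2 or 3 or Etv4_KO replicate 1 or 3 (adjusted p = 0.0535 to 0.0873) or in the fit on the compared libraries alone (0.126). Saa3 had 3 counts in knockout and 13 in control cells without FGF, a ratio of control to knockout of 4.01 (95% counting interval 1.1 to 21.9), and with FGF 7 counts in knockout and 6 in control cells. Its knockout and control libraries overlapped in both conditions.

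In knockout cells whole chromosomes were shifted as well, with a median log2 fold change without FGF of -0.37 on chromosome 11, -0.40 on chromosome 16 and 0.31 on chromosome 17, and the smaller differences above can be set beside those of their neighbours, the 25 tested genes on each side where the chromosome allows. Without FGF the neighbours' median log2 fold change was -0.29 for Birc3, -0.33 for Lif, -0.27 for Tnfaip3, -0.21 for Cxcl16, 0.32 for Tnfaip2 and 0.37 for Rela, where these genes were at -0.29, -0.36, -0.33, -0.26, 0.33 and 0.26. With FGF the neighbours were at 0.02 for Birc3, -0.36 for Lif, -0.12 for Tnfaip3, -0.29 for Cxcl16, 0.22 for Tnfaip2 and 0.24 for Rela, where these genes were at -0.41, -0.41, -0.47, -0.37, 0.48 and 0.12. Without FGF the neighbours' median was -0.44 around Rel, -0.47 around Nfkbiz, 0.26 around Nfkbia and 0.15 around Nfkb2. These genes were at -0.77, -1.04, 0.41 and 0.42. Around the other genes with decreases over 2-fold, the neighbours were at 0.37 for Tnf, 0.32 for Lcn2, 0.12 for Il1a, 0.07 for Cxcl2, -0.03 for Il33, -0.08 for Icam1, -0.11 for Cd40, -0.21 for Vcam1 and -0.32 for Il18. Ptgs2 and Cxcl1, which rose, had neighbours at -0.29 and 0.06. Of the remaining genes called without FGF, Cxcl5, Cxcl3 and C3 had neighbours at 0.06, 0.06 and 0.335. These genes were at -0.33, -0.98 and -0.93. Cx3cl1, Ccl20 and Cxcl10 had neighbours at -0.13, -0.10 and 0.135 and were themselves at -0.75, -0.85 and 0.76. The smaller differences thus lay near those of their neighbours for some genes and apart from them for others. With FGF the neighbours' median was -0.34 around Rel, -0.43 around Nfkbiz, 0.28 around Nfkbia and 0.13 around Nfkb2. These genes were then at -0.26, -0.73, 0.46 and 0.18. The part of such shifts in the differences was not tested.

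FGF changed few of these genes. The comparison of cells with and without FGF asks what FGF10 and FGF2 do to the same transcripts. In knockout cells, 1 of 35 genes was higher and 0 lower with FGF, against 1.47% and 0.944% of all tested genes. In control cells, 0 were higher and 2 lower, against 0.257% and 0.232% of all tested genes. The median log2 fold change was 0.12 in knockout cells and -0.002 in control cells, where that of all genes was -0.02 and -0.001. Tnfaip2 was the gene that rose in knockout cells, to 424 ± 12.5 CPM with FGF, against 349 ± 8.56 CPM without FGF (SD, n = 3 each; log2 0.28, SE 0.06, adjusted p = 0.0214, edgeR). That call was lost without any 1 library of knockout cells with FGF (adjusted p = 0.0566 to 0.107) and in the fit on the compared libraries alone (0.212). In control cells Cxcl5 fell to 36.6, 37.6 and 38.5 CPM with FGF, against 65.0, 66.5 and 61.4 CPM without FGF. These libraries did not overlap (log2 -0.78, SE 0.09, adjusted p = 0.00129, edgeR), and the call held in each of the fits that left out 1 library. C3 fell to 96.9 ± 6.2 CPM in control cells with FGF, against 132 ± 0.39 CPM without FGF (SD, n = 3 each; log2 -0.45, SE 0.08, adjusted p = 0.0326, edgeR), a call lost when any 1 library other than control_FGF replicate 2 or the 3 Etv4_KO libraries was left out (adjusted p = 0.0669 to 0.213).

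Several genes missed the threshold with FGF by little. In knockout cells these were Vcam1 (log2 -0.62, SE 0.15, adjusted p = 0.0519), Il1a (log2 0.42, SE 0.11, adjusted p = 0.0647) and Cxcl1 (log2 0.28, SE 0.07, adjusted p = 0.0674; edgeR). By DESeq2 6 of the genes passed in knockout cells, 5 higher and 1 lower, of 730 genes in all. At an unadjusted p under 0.05 edgeR gave 8 higher and 3 lower genes in knockout cells, where 2377 of all 12079 genes had such a p, and 3 higher and 4 lower in control cells, where 720 had. Without Etv4_KO replicate 2, which is 1 of the 6 libraries of the first comparison, 4 were higher and 3 lower in knockout cells and 2 were higher and 4 lower in control cells. Over all genes 585 were then higher and 365 lower in knockout cells, against 178 and 114 with all libraries. In control cells 194 were higher and 149 lower, against 31 and 28. Of the 35 genes, those added in knockout cells were Tnfsf9, Cxcl1 and Cxcl16, higher, and Vcam1, Cxcl5 and Tnfaip3, lower. Those added in control cells were Il23a and Cxcl16, higher, and Nfkbiz and Vcam1, lower. Without Etv4_KO replicate 3, Il1a (log2 0.55, adjusted p = 0.0225) and Cxcl2 (1.98, adjusted p = 0.0335) also passed in knockout cells, and Vcam1 passed without Etv4_KO_FGF replicate 3 (-0.78, adjusted p = 0.0347).

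**Figure D5:**
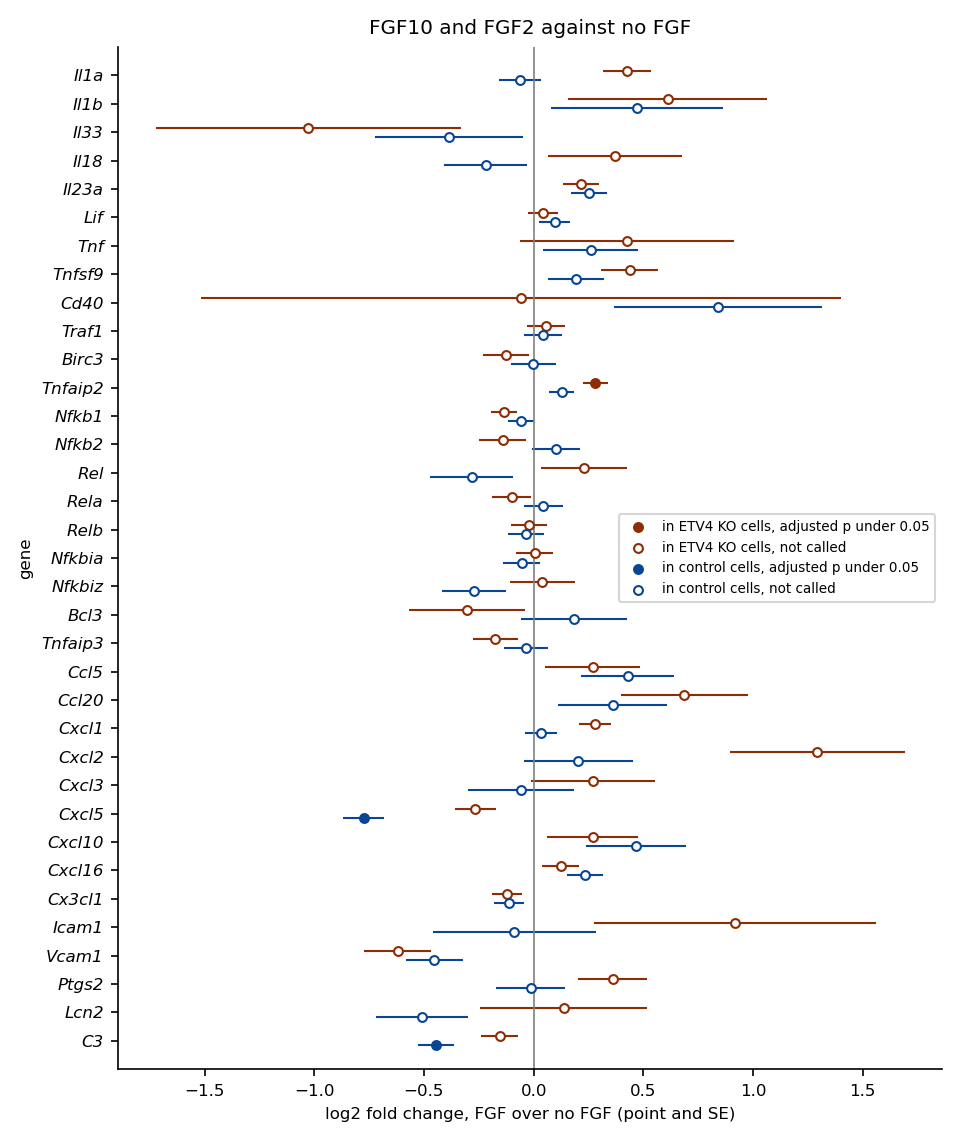
Log2 fold change of FGF over no FGF with its SE for the 35 tested genes, in knockout cells (dark red) and in control cells (blue); filled points passed the edgeR test at an adjusted p under 0.05. The filled points are Tnfaip2 in knockout cells and Cxcl5 and C3 in control cells.

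Whether FGF acted differently in knockout and control cells was tested as an interaction. By edgeR 0 of 35 genes passed, against 0.0166% of all tested genes, with 5 at an unadjusted p under 0.05 among 1227 such genes in all. On simulated data the edgeR interaction test recovered 18.2% of 1.5-fold and 80.3% of 2-fold changes. There 132 genes were called, against 2 in these data, where the adjusted threshold was therefore stricter. The simulation also set no library apart as Etv4_KO replicate 2 was. The recovery in these data was not estimated, and interactions of 2-fold as well as smaller ones can be missed. By DESeq2 0 passed, of 66 genes in all, with 6 at an unadjusted p under 0.05 among 1344. The smallest p was that of Cxcl5 (log2 0.51, SE 0.13, adjusted p = 0.31), which was at -0.27 with FGF in knockout and -0.78 in control cells. Cxcl2 was at 1.29 in knockout and 0.20 in control cells, an interaction of 1.09 (SE 0.47, adjusted p = 0.485). Without Etv4_KO replicate 2, Cxcl5 (log2 0.40, edgeR adjusted p = 0.023) and C3 (log2 0.37, adjusted p = 0.0361) passed, of 120 genes in all. The same libraries enter both FGF effects and their difference.

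Other genes of the pathway, from lists that were also drawn up with earlier results of these data known, were counted in the same fit. Of 21 tested receptors for the ligands above and other activators, 3 were higher and 10 lower in knockout cells without FGF, and 5 higher and 8 lower with FGF. Of all tested genes 22.5% were higher and 23.3% lower without FGF, and 18.0% higher and 22.2% lower with FGF. Il1r1, the receptor of IL-1, averaged 12.5 ± 0.929 CPM in knockout and 25.1 ± 2.32 CPM in control cells without FGF, and 10.9 ± 1.29 CPM in knockout and 20.9 ± 2.36 CPM in control cells with FGF (SD, n = 3 each). Its edgeR difference was log2 -1.002, SE 0.12, adjusted p = 2.48e-05 without FGF and log2 -0.93, SE 0.12, adjusted p = 5.23e-05 with FGF. Il1rap, the accessory chain that this receptor needs to signal, fell by 1.38 and 0.76 on the log2 scale (edgeR adjusted p = 6.23e-06 and 0.000627). Tnfrsf9, the receptor 4-1BB, had 20 counts in knockout and 254 in control cells without FGF, and 23 in knockout and 266 in control cells with FGF (log2 -3.52 and -3.42, with FGF -4.17 without Etv4_KO_FGF replicate 3). Lifr, the receptor of LIF, had 4 counts in knockout and 46 in control cells with FGF (log2 -3.32, edgeR adjusted p = 0.000567). The receptor count with FGF was 3 higher without any 1 of control_FGF replicate 1 or 3 or the 3 Etv4_KO_FGF libraries, and 5 lower without Etv4_KO_FGF replicate 3.

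Of 30 adaptors and kinases between receptor and IKK, 4 were higher and 7 lower without FGF, and 4 higher and 5 lower with FGF, against the same shares of all tested genes. The kinase Irak1 rose by 0.49 and 0.43 on the log2 scale (edgeR adjusted p = 6.98e-05 and 0.0002), and with FGF the adaptor Traf3 rose by 0.44 and the IKK subunit Ikbkg by 0.37 (adjusted p = 0.00471 and 0.0074). Irak2 and Map3k3 fell without FGF, by 0.64 and 0.46 (edgeR adjusted p = 0.000997 and 0.000541). They were also called lower with FGF, and Ikbkg was also called higher without FGF. Several runs lost these calls, among them no low-count filter for Irak2 and Map3k3 (edgeR adjusted p = 0.0821 and 0.0863) and the compared libraries alone for Ikbkg (0.127). Traf3 was called higher without FGF when Etv4_KO replicate 2 was left out (log2 0.30, edgeR adjusted p = 0.000349). Without Etv4_KO replicate 2 the counts were 8 higher and 13 lower without FGF and 7 higher and 8 lower with FGF, where 3212 genes in all were higher and 3455 lower without FGF, and 3439 higher and 3733 lower with FGF. Without any 1 library of control_FGF or Etv4_KO_FGF, or control replicate 1 or 2, 1 to 3 were lower with FGF.

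Among 16 further IkB proteins and negative regulators, 2 were higher and 6 lower without FGF, and 3 higher and 5 lower with FGF, against 22.5% and 23.3% of all tested genes without FGF and 18.0% and 22.2% with FGF. Nfkbie, which encodes IkBε, fell by 0.88 and 0.85 (edgeR adjusted p = 8.79e-06 and 1.38e-05), and Tnip1, an A20-binding protein, by 0.93 and 1.18 (adjusted p = 0.00014 and 2.34e-05). Tnip3, of the same family, had 0 counts in all knockout libraries, against 101 in control cells without FGF and 95 with FGF, and was at least 31.2-fold and 29.6-fold lower. The higher count without FGF was 4 without Etv4_KO replicate 1 or 2 and 1 without control replicate 2, and with FGF it was 6 without Etv4_KO replicate 2.

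Of 13 other cytokine and chemokine genes that were tested, among 39 in the table, 3 were higher and 5 lower without FGF, and 3 higher and 8 lower with FGF, where 22.5% and 23.3% of all tested genes were higher and lower without FGF and 18.0% and 22.2% with FGF. Il24, a cytokine of the IL-10 family, rose to 116 ± 10.4 CPM in knockout cells, against 47.0 ± 3.11 CPM in control cells without FGF, and to 137 ± 12.4 CPM in knockout cells, against 66.4 ± 4.81 CPM in control cells with FGF (SD, n = 3 each). The edgeR difference was log2 1.30, SE 0.10, adjusted p = 3.17e-07 without FGF and log2 1.05, SE 0.09, adjusted p = 2.08e-06 with FGF. Tnfsf10, the death ligand TRAIL, had 9 counts in knockout and 97 in control cells without FGF (log2 -3.28, SE 0.47, adjusted p = 0.000113, edgeR). Il34, a ligand of the macrophage receptor Csf1r, fell by 0.59 and 0.61, and Il15 was at -2.23 with FGF (edgeR adjusted p = 0.000131 and 0.000104 for Il34, 4.74e-05 for Il15).

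The 5 tested genes of caspase-1 and IL-1 family processing included 2 that were close to absent in knockout cells. Casp1, the protease that matures IL-1β and IL-18, had 4 counts in knockout and 422 in control cells without FGF, and 2 counts in knockout and 370 in control cells with FGF, a ratio of control to knockout of 173 (95% counting interval 47.6 to 1440). All 4 counts without FGF came from Etv4_KO replicate 2, and both with FGF from Etv4_KO_FGF replicate 3. The fitted values of -6.49 and -7.20 became -10.14 and -9.88 without these libraries, and the first became -5.86 without Etv4_KO replicate 3. Casp4, known in mouse as caspase-11, had 3 counts in knockout and 115 in control cells without FGF, a ratio of control to knockout of 35.5 (11.8 to 175), and 0 counts in knockout and 69 in control cells with FGF, at least 21.5-fold lower. Its 3 counts came from Etv4_KO replicate 1, and the fitted value of -5.00 became -8.25 without that library and -4.39 without Etv4_KO replicate 3. Gsdme, a pore-forming gasdermin, was higher in knockout cells without FGF (log2 0.35, SE 0.12, adjusted p = 0.0297) and lower with FGF (log2 -0.38, SE 0.13, adjusted p = 0.0322), but its interaction did not pass (log2 -0.73, SE 0.18, adjusted p = 0.265; edgeR). Its first call was lost without control replicate 2 or 3 or Etv4_KO replicate 2 or 3 (adjusted p = 0.0551 to 0.102), and its second when replicate 1 or 2 of control_FGF was left out, or replicate 2 or 3 of Etv4_KO_FGF (0.0759 to 0.132). Both were lost with no low-count filter (0.0541 and 0.0618), and the first in the fit on the compared libraries alone (0.0669). The apoptotic caspase Casp8 fell by 0.48 with FGF (edgeR adjusted p = 0.00145). Without FGF it was called lower when Etv4_KO replicate 2 was left out (log2 -0.28, edgeR adjusted p = 0.000894). In all, 1 was higher and 2 lower without FGF (0 and 4 without Etv4_KO replicate 2), and 0 higher and 5 lower with FGF (3 lower without control_FGF replicate 1 or 2 or Etv4_KO_FGF replicate 2 or 3). Of all tested genes 22.5% were higher and 23.3% lower without FGF, and 18.0% and 22.2% with FGF.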

How the data were processed

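The authors deposited raw counts of reads for each gene symbol in 12 libraries, from TruSeq Stranded polyA preparations, per the labels' protocols. The tools featureCounts, STAR 2.7.9a, R 4.1.1 and FastQC 0.11.9 are named with hg38 and mm10, per the submitters' processing notes. The sources used here do not give the annotation release, the strand setting or the handling of reads that match several genes.

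All 12 libraries were fitted together in edgeR 4.0.16 (R 4.3.3) with filterByExpr, TMM scaling, 1 mean per group and 8 residual degrees of freedom. Genes were called by the quasi-likelihood test at a Benjamini-Hochberg adjusted p under 0.05 over 12079 genes, and the test was tested on simulated data. CPM are relative to TMM-scaled library totals, and ± is the SD. Levels per kilobase use the union of all annotated exons of a gene. Genes given in every library are those called with an absolute log2 fold change of at least 1 in a knockout comparison, and the NF-kB subunits. Pathway genes named are at most the 3 with the smallest adjusted p per list and knockout comparison. The members and lists were chosen with earlier results of these data known. Alternatives were RLE scaling, DESeq2 1.42.0, other low-count filters, a replicate block, the compared libraries alone and leaving out each library. Replicate numbers did not pair libraries. Gene positions are mm10. Ratios of low counts use exact 95% intervals or a floor of 3 counts per group. Motifs and levels were computed with Python 3.11.15, pandas 2.3.3 and scipy 1.17.1, and plots with matplotlib 3.10.9.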

Additional observations from a re-analysis of the deposited data

How the results depend on the processing

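No called gene of the 35 changed direction under any alternative run. Depth limits the genes with few counts, Il33, Cd40, Icam1, Tnf and Cxcl2 in knockout cells, whose fold changes are loosely set, and those not tested. With all libraries in 1 fit, Etv4_KO replicate 2 raises the estimate of spread in every comparison. The cause of the changes below was not tested.

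Correlations of deviations between libraries of the same replicate number were -0.087 to 0.078, so numbers did not pair libraries. With the replicate block the call of Cxcl10 with FGF was lost (0.55, edgeR adjusted p = 0.0588), as were those of Map3k3 and Irak2 with FGF (adjusted p = 0.0524 and 0.0533). It changed no other call of a named gene.

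For FGF in knockout cells, 292 genes were called, 730 by DESeq2 and 23 with the compared libraries alone. Of the 35 genes 5 were higher and 1 lower by DESeq2, 0 higher with the compared libraries alone, and 1 lower with no low-count filter or with a filter at 1 CPM in 3 libraries. For FGF in control cells, 59 genes were called, 143 by DESeq2 and 228 with the compared libraries alone, where 1 of the 35 was higher (Cxcl16) and 3 lower (Vcam1 beside Cxcl5 and C3). For the interaction, 2 genes were called, 66 by DESeq2 and 8 with no low-count filter, and the median of the 35 genes was 0.059, or 0.101 with the filter at 1 CPM.

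Leaving out 1 library at a time gave 4491 to 6667 genes called between knockout and control without FGF and 3963 to 7172 with FGF, 120 to 950 for FGF in knockout cells, 25 to 343 for FGF in control cells and 0 to 120 for the interaction. Of the 35 genes, 5 to 7 were higher and 17 to 21 lower in knockout cells without FGF, 4 to 8 higher and 16 to 20 lower with FGF, 0 to 4 higher and 0 to 3 lower with FGF in knockout cells, 0 to 2 higher and 1 to 4 lower in control cells, and 0 to 2 higher for the interaction. Their median log2 fold change ranged from -0.404 to -0.322 without FGF, -0.447 to -0.399 with FGF, 0.032 to 0.155 for FGF in knockout cells, -0.005 to 0.049 for FGF in control cells and -0.004 to 0.102 for the interaction.

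Signs turned for uncalled values near 0. Birc3 with FGF in control cells was at 0.002 by RLE and DESeq2 and 0.001 with no low-count filter, and the interaction of Cx3cl1 was at 0.002 by RLE and 0.003 by DESeq2. Leaving out 1 library turned knockout values of Ccl5 without FGF (-0.26 to 0.143), Nfkb1 with FGF (-0.027 to 0.015) and Tnfsf9 with FGF (-0.017 to 0.183). With FGF in knockout cells it turned Cd40 (-2.74 to 0.486), Lcn2 (-0.156 to 0.7), Nfkb2 (-0.241 to 0.038), Nfkbia (-0.062 to 0.116), Nfkbiz (-0.155 to 0.152), Rel (-0.018 to 0.417), Rela (-0.171 to 0.003), Relb (-0.077 to 0.051), Tnf (-0.02 to 0.724) and Traf1 (-0.006 to 0.144). With FGF in control cells it turned Birc3 (-0.019 to 0.015), Cxcl1 (-0.005 to 0.072), Cxcl3 (-0.223 to 0.079), Icam1 (-0.215 to 0.011), Ptgs2 (-0.062 to 0.05), Rela (-0.004 to 0.087) and Tnfaip3 (-0.071 to 0.032). For the interaction it turned Ccl5 (-0.308 to 0.095), Cx3cl1 (-0.058 to 0.04), Il1b (-0.34 to 0.475), Il23a (-0.085 to 0.055), Nfkbia (-0.007 to 0.17), Relb (-0.043 to 0.085), Tnf (-0.279 to 0.465) and Traf1 (-0.049 to 0.102).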
